A study of Mus musculus with 18 samples.

Results

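The 34 genes described here are interferon-stimulated genes that lie outside the major histocompatibility complex (MHC). They were chosen by name, and each was read from the array probe sets whose only annotated gene symbol is that gene. By this rule 32 of the 34 were measured, by 48 of the 34945 probe sets that carry 1 symbol, among 18193 genes on the array. Isg15, the ubiquitin-like modifier of the family, had no value of its own because its only probe set is also annotated to another gene, and no probe set carried the name Ifi44.

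Gene expression was measured on 18 Affymetrix mouse arrays, in dopamine neurons laser-captured from 2 midbrain regions: the substantia nigra, written SN, and the neighbouring ventral tegmental area, written VTA. MPTP is a toxin whose metabolite enters dopamine neurons and blocks mitochondrial respiration. Each region had 3 groups of 3 arrays: control, MPTP for 2 days and MPTP for 10 days. Every animal was an adult C57Bl/6 mouse carrying the hTH-GFP transgene, kept in a cage alone for 9 weeks. The MPTP groups received 4 mg/kg, brains were taken 7 days after the final injection, and the protocol gives the controls saline for 10 days, although the sample descriptions call them untreated. The 2 day group therefore also differs from the others in its number of injection days. The replicates are called biological, but the labels tie no array to a mouse and do not say whether mice were pooled, how captured neurons were recognised, or whether an SN and a VTA array share an animal.

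Interferons are secreted signals of infection. They bind receptors that activate STAT proteins, and the complex of STAT proteins with IRF9 enters the nucleus and switches on its target genes through a DNA element, the interferon-stimulated response element (ISRE). The products include sensors of viral RNA, transcription factors that sustain the response, enzymes whose product activates an RNA-degrading nuclease, membrane proteins that hold back viral particles, and GTPases that attack the membranes around intracellular pathogens. In brain, microglia and other immune cells respond strongly to interferon, and neurons can respond as well.

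The ISRE can be looked for in the promoters of the named genes. RefSeq promoter windows of the assembly GRCm38.p6, running from 250 bases before a gene's start to 50 bases after it, were at hand for 26 of the 34 genes. The ISRE was searched on both strands as GAAA, any 2 bases and GAAA, and 16 of the 26 genes (61.5%) held at least 1 match, against 3.99% of all 27025 genes with a window and 3.44% of all 32851 windows. The gamma-activated site, bound by STAT dimers and searched as TTC, any 3 bases and GAA, was in the window of 7 of the 26 genes (26.9%), against 9.55% of all genes. The 250 bases before the start are printed below for 4 genes on which the later values turn, 5′ to 3′ in the direction of transcription, with ISRE matches in capitals. A match on the opposite strand reads as its reverse complement.
Ifit1, chr19:34640639-34640888, plus strand: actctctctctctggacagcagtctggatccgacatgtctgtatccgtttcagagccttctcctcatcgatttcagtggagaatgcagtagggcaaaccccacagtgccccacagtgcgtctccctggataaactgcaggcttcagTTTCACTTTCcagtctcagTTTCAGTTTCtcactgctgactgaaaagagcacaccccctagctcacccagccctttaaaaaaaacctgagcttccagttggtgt
Ifit3, chr19:34583279-34583528, plus strand: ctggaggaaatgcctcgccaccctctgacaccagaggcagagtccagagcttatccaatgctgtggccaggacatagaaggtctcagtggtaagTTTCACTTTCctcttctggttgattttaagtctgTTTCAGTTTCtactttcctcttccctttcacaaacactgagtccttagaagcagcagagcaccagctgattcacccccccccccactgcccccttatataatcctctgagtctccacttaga
Rsad2, chr12:26456453-26456702, minus strand: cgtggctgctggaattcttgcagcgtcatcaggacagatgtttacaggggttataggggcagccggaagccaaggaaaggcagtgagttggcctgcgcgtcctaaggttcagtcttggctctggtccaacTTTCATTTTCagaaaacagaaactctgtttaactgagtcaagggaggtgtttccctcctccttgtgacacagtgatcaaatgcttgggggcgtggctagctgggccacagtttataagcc
Oas1a, chr5:120907526-120907775, minus strand: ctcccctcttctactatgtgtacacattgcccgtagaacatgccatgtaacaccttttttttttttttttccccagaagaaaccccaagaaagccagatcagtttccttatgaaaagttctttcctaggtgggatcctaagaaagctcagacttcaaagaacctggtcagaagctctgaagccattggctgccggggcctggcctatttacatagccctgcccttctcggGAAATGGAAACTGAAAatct

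Ifit1 and Ifit3 lie close to each other on chromosome 19 and each held 2 separate matches, which ended 95 and 76 bases before the Ifit1 start and 147 and 113 bases before the Ifit3 start. In Oas1a 2 matches overlapped and ended 11 and 5 bases before the start, and the single match of Rsad2 ended 111 bases before it. No ISRE match was found in the windows of Irf1, Irf7, Irf9, Ifit2, Oasl2 or Trim25. Of these genes Irf1 and Ifit2 held a match to the gamma-activated site, ending 82 and 233 bases before the start. These letters describe the windows and do not say whether a factor is bound there.

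The deposited values are log2 signals centred on each probe set's median over the 18 arrays, so 0 is a gene's middle value and every number below is a position relative to it. No level, no detection call and no comparison of levels between genes can be drawn from them. The 13 dopamine neuron markers, Th and Slc6a3 among them, had array means between -0.645 and 0.93. All 13 were lower after 2 days in the SN, by a median of -0.96, with the smallest adjusted p at 0.522. Fewer cells of a type and less RNA per cell cannot be told apart in such samples. The deviation of an array's genes from 0 was widest on SN control array 1 and VTA 2 day array 1. Over the 18193 genes, limma called between 0 and 6 genes per comparison at an adjusted p under 0.05.

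**Figure D1:**
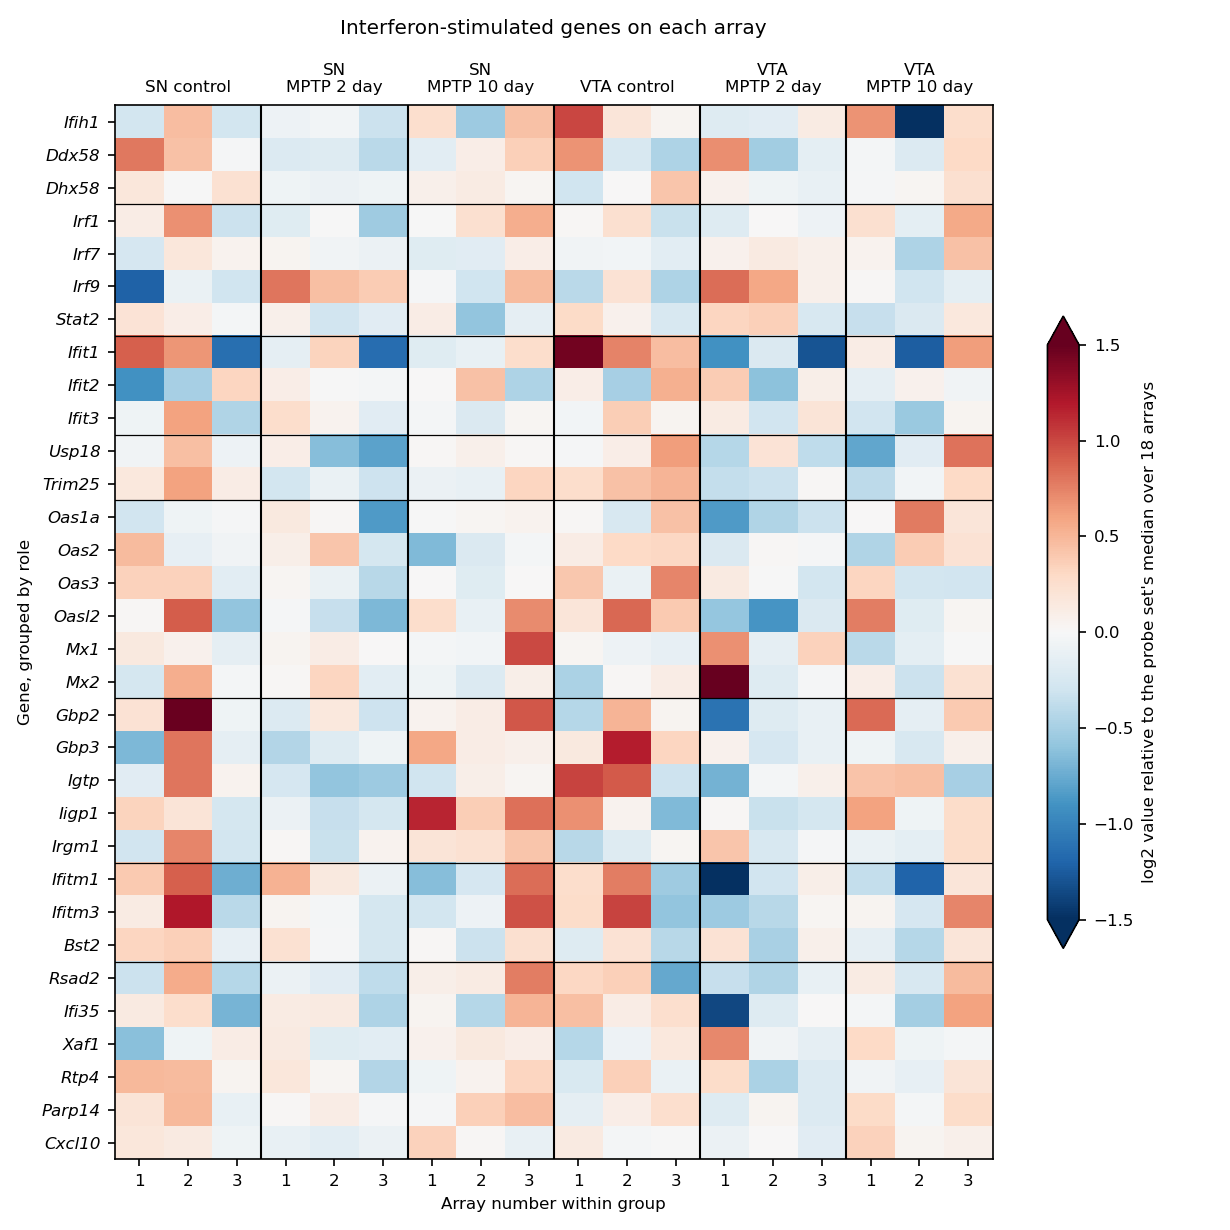
Centred log2 values of the 32 measured genes (rows, separated by role) on the 18 arrays (columns, separated by group); red is above and blue below the gene's own median. SN control array 2 has 26 of 32 genes above 0 and SN MPTP 2 day array 3 has 3, and colours differ as much between arrays of 1 group as between groups.

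No measured interferon-stimulated gene passed an adjusted p of 0.05 in any of the 11 comparisons. After 2 days of MPTP most of them lay lower than in controls in both regions. In the SN 25 of 32 were lower, with a median difference of -0.20, and in the VTA 23 of 32, with a median of -0.21. After 10 days the counts were close to even, 17 of 32 lower in each region, with medians of -0.06 and -0.03, but leaving out 1 array moved both, as given below. Between 2 and 10 days 24 of 32 were higher at 10 days in the SN and 21 of 32 in the VTA. Over both regions the largest difference upward at 2 days was that of Irf9 in the SN (the DNA-binding subunit of the interferon-activated complex), and the largest downward was that of Ifit1 in the VTA (a protein that binds foreign RNA).

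For 2 days of MPTP in the SN, limma called 0 of 32 genes, as it did for 0% of all genes. At an unadjusted p under 0.05 there were 3 of 32, 1 higher and 2 lower, against 6.65% of all genes. Control and treated arrays did not overlap for 6 of 32 (18.8%), against 14.5% of all genes. Of these 1 was higher, against 5.96% of all genes, and 5 were lower, against 8.56%. A difference above 0 was found for 7 of 32 (21.9%) and for 44.7% of all genes, whose median was -0.03. The standard error of a difference ranged from 0.135 to 0.536, and for 21 of 32 genes the 95% interval lay within a 2-fold change either way.

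The SN count at 2 days depended on 1 control array. Without SN control array 2 the number lower was 18 of 32 and the median -0.07, and without SN control array 3 they were 28 of 32 and -0.31. SN control array 2 had 26 of the 32 genes above 0, and 10 of them reached their highest value of the series there, against 4.47% of all genes. Leukocyte markers moved with it: 9 of 10 were lower after 2 days in the SN, by a median of -0.34, and their mean was 0.60 on SN control array 2, 0.33 on array 1 and -0.04 on array 3. The 3 erythrocyte markers were lower in the same comparison by a median of -0.67, 10 of 15 microglia and macrophage markers by -0.09 and 6 of 8 oligodendrocyte markers by -0.18, beside the 13 dopamine neuron markers given above. Of 11 astrocyte markers 9 were higher, by a median of 0.26, while endothelial and ependymal markers were mixed, with medians of -0.02 and 0.05. Their part in the count was not tested. Over the alternatives and single arrays left out, 14 of the 32 genes changed sign at least once, and 16 were lower and 2 higher throughout.

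In the VTA after 2 days limma also called 0 of 32, with 0.011% of all genes called. Here 8 of 32 had an unadjusted p under 0.05, 1 higher and 7 lower, which is 25% against 8.06% of all genes. Arrays did not overlap for 8 of 32, against 10% of all genes. Of these 1 was higher, against 5.1% of all genes, and 7 were lower, against 4.92%. A value above 0 was found for 9 of 32, against 48.4% of all genes, whose median was -0.01. The number lower stayed between 21 and 25 and the median between -0.25 and -0.17 when each array was left out. Over the same alternatives 10 genes changed sign at least once, and 16 were lower and 6 higher throughout. Markers of most cell types lay lower as well: 12 of 13 dopamine neuron markers, by a median of -0.46, 8 of 8 oligodendrocyte markers by -0.32, 12 of 15 microglia and macrophage markers by -0.27, 8 of 10 endothelial markers by -0.20, 9 of 11 astrocyte markers by -0.16 and 7 of 10 leukocyte markers by -0.07. Of 9 ependymal and choroid plexus markers 7 were higher, by a median of 0.31, and the 3 erythrocyte markers were mixed. Their part was not tested.

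The SN and VTA comparisons share no arrays, though they may share mice. In both regions 19 of 32 genes were lower at 2 days and 3 were higher, and 10 differed in sign between them. Among all genes 32.8% were lower in both, 26% higher in both and 41.2% opposite in sign.

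**Figure D2:**
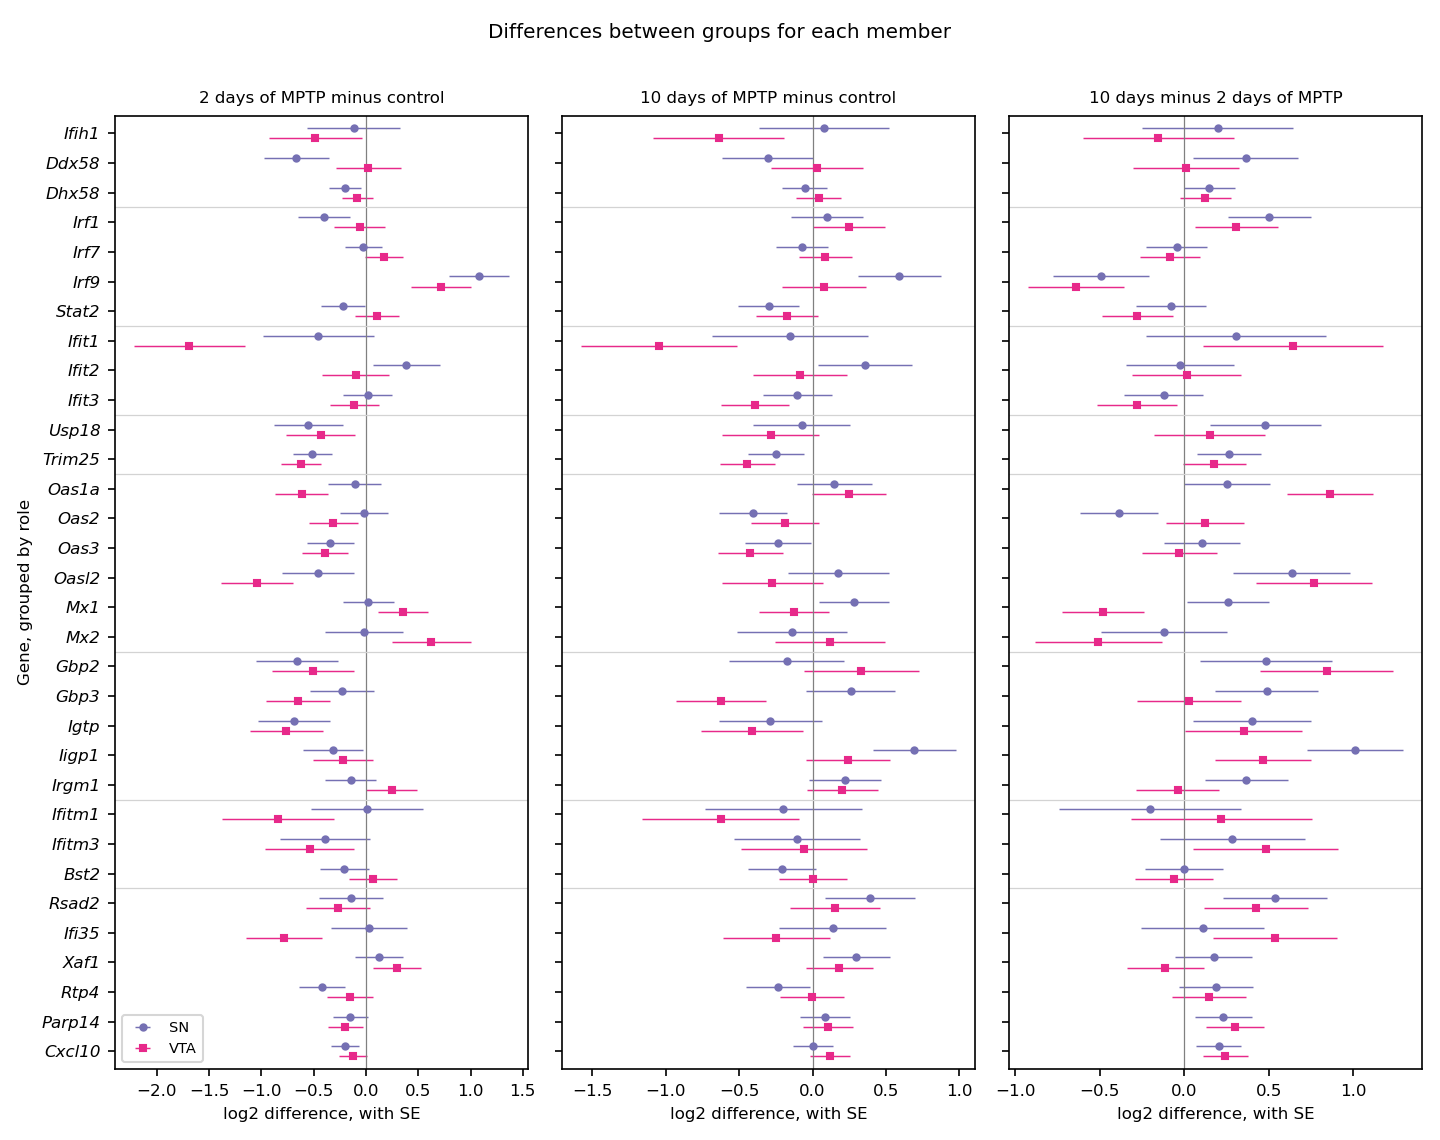
Log2 difference with its standard error for each of the 32 genes in the SN (circles) and the VTA (squares), for 2 days of MPTP minus control, 10 days minus control and 10 days minus 2 days. At 2 days 25 SN and 23 VTA values lie left of 0, with Irf9 at 1.08 and 0.72 on the right; the first and last panels share the 2 day arrays.

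Sensors of viral RNA come first in the pathway. Ddx58, which encodes RIG-I, had values of 0.79, 0.44 and -0.02 on the SN control arrays and -0.20, -0.19 and -0.40 on the SN 2 day arrays. In this mean of 3 probe sets all 3 treated arrays lay below all 3 controls. The difference was -0.67 ± 0.31 (SE, n = 3 per group, adjusted p = 0.742). In 1 probe set the groups overlapped, with SN control array 3 at -0.28 and SN 2 day array 1 at -0.06. Its 3 probe sets had differences of -0.79, -0.79 and -0.42. In the VTA the same comparison gave 0.02 ± 0.31, and the 2 day arrays spread from -0.52 to 0.70 across the controls.

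Ifih1, which encodes the sensor MDA5, ran from -1.63 on VTA 10 day array 2 to 1.00 on VTA control array 1. Its difference in the VTA was -0.49 ± 0.45 at 2 days and -0.64 ± 0.45 at 10 days, with the arrays overlapping in both. Dhx58, which encodes LGP2, a regulator of those sensors, differed by -0.20 ± 0.15 in the SN at 2 days without overlap, with an adjusted p of 0.855. Its 3 probe sets correlated at -0.34 to 0.23 over the arrays, so their mean is a weak summary.

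Among the transcription factors Irf9 stood on the other side from most of the family. Its values were -1.21, -0.10 and -0.30 on the SN control arrays, 0.81, 0.45 and 0.38 after 2 days and -0.01, -0.30 and 0.48 after 10 days. Every 2 day array exceeded every control, while the 10 day arrays overlapped both. The 2 day difference was 1.08 ± 0.28 with an adjusted p of 0.553. Without SN control array 1, which holds the lowest Irf9 value, it was 0.74. The 10 day difference was 0.59 ± 0.28, or 0.25 without that array.

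In the VTA, Irf9 had values of -0.41, 0.21 and -0.46 in controls, 0.83, 0.58 and 0.08 after 2 days and 0.01, -0.30 and -0.14 after 10 days. The 2 day arrays overlapped the controls through 1 array of each group, and the difference was 0.72 ± 0.28 (adjusted p = 0.554). All 3 arrays of 10 days lay below all 3 of 2 days, with a difference of -0.64 ± 0.28 (adjusted p = 0.771). In the SN that difference was -0.49 ± 0.28, with overlap. Irf9 is read by a single probe set.

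Stat2, the partner of IRF9 in the activated complex, did not show the same pattern. It differed by -0.22 ± 0.21 in the SN and 0.10 ± 0.21 in the VTA at 2 days, and by -0.30 ± 0.21 and -0.17 ± 0.21 at 10 days, with overlapping arrays throughout. Its 2 probe sets correlated at 0.12. Irf7, the factor that amplifies interferon production, differed from control by -0.07 to 0.17 in these 4 comparisons. In the VTA its 2 day values of 0.07, 0.13 and 0.07 lay just above the controls of -0.05, -0.04 and -0.15, a difference of 0.17 ± 0.18 (adjusted p = 0.860).

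Irf1, a factor induced by both classes of interferon, had 2 day SN values of -0.19, -0.01 and -0.53 and 10 day SN values of -0.01, 0.24 and 0.55. The lowest 10 day array sat just above the highest 2 day array, and the difference was 0.50 ± 0.25 (adjusted p = 0.9998). Against SN controls, which ran from -0.32 to 0.68, Irf1 differed by -0.40 ± 0.25 at 2 days and 0.10 ± 0.25 at 10 days. In the VTA the 10 day difference was 0.25 ± 0.25.

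**Figure D3:**
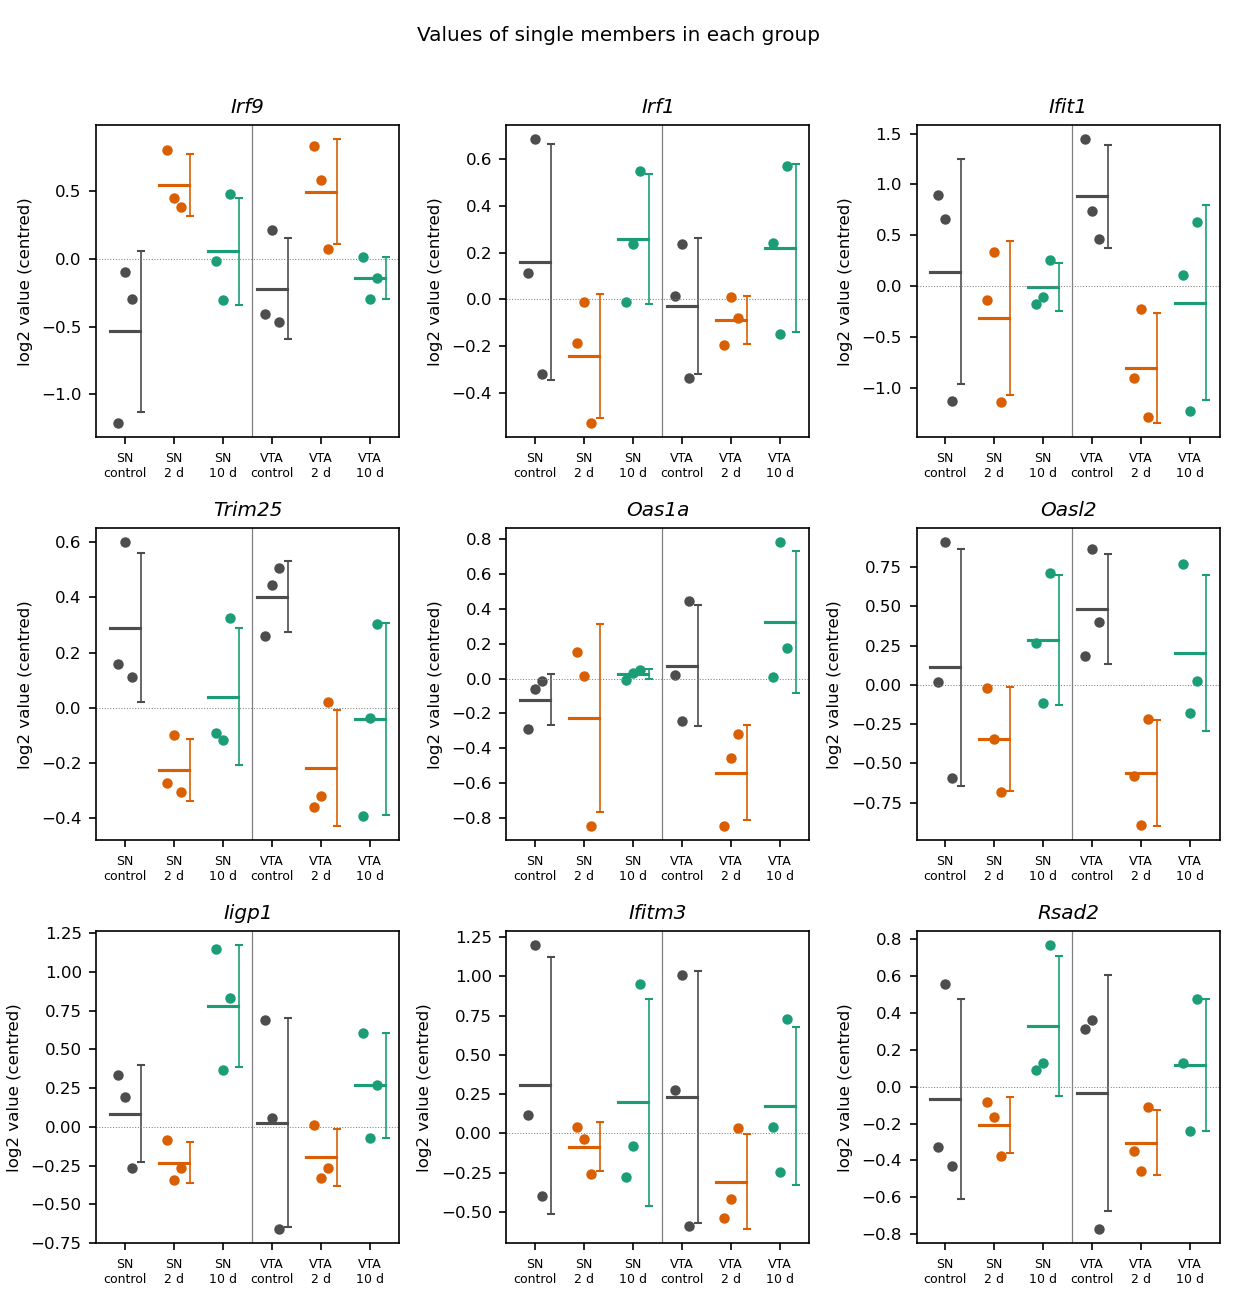
Centred log2 values of 9 interferon-stimulated genes on each array (points), with the group mean (line) and SD (bar, n = 3). By group mean Irf9 is highest at 2 days in each region, and every other gene shown is lowest there. Arrays of the groups overlap for several of them. Vertical scales differ between panels.

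The IFIT proteins bind viral RNA and block its translation. Ifit1 had values of 1.44, 0.74 and 0.47 on the VTA control arrays, -0.91, -0.22 and -1.29 after 2 days and 0.11, -1.23 and 0.63 after 10 days. The 2 day arrays were all below the controls, whereas the 10 day arrays ranged over both. The 2 day difference of -1.69 ± 0.53 had an adjusted p of 0.406, and leaving out an array moved it between -1.98 and -1.41. The 10 day difference was -1.05 ± 0.53, and -0.51 without VTA 10 day array 2.

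In the SN the Ifit1 control arrays alone spanned -1.13 to 0.89, and the 2 day difference was -0.46 ± 0.53. The difference between the VTA and SN responses at 2 days was -1.23 ± 0.75 (adjusted p = 0.9999), or -0.60 without SN control array 3, so a regional difference was not shown. Ifit3 differed by 0.02 ± 0.23 in the SN and -0.11 ± 0.23 in the VTA at 2 days, and by -0.39 ± 0.23 in the VTA at 10 days. Its SN value at 2 days had no stable sign, being 0.31 without SN control array 2 and -0.22 without array 3. From 2 to 10 days in the SN it differed by -0.12 ± 0.23. Ifit2 differed from control by between -0.10 and 0.38 in the 4 comparisons, with overlap in each, and the highest was 0.38 ± 0.32 in the SN at 2 days.

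The ISG15 system attaches the ISG15 protein to targets (TRIM25 is one of its ligases and also activates RIG-I) and removes it (USP18, which also restrains receptor signalling). Trim25 values were 0.16, 0.60 and 0.11 on SN controls and -0.27, -0.10 and -0.31 after 2 days. In the VTA they were 0.26, 0.44 and 0.50 in controls, and -0.36, -0.32 and 0.02 after 2 days. In this mean of 3 probe sets no 2 day array reached a control array in either region. In 1 of the 3 the groups overlapped in both regions. There SN control array 1 was at -0.59, below every SN 2 day array, and VTA 2 day array 3 at 0.36, above every VTA control.

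The differences for Trim25 were -0.51 ± 0.19 in the SN (adjusted p = 0.670) and -0.62 ± 0.19 in the VTA (adjusted p = 0.406). Its 3 probe sets gave -0.76, -0.50 and -0.28 in the SN and -1.04, -0.67 and -0.16 in the VTA. After 10 days the gene differed by -0.25 ± 0.19 in the SN and -0.44 ± 0.19 in the VTA, with 10 day arrays overlapping controls. Usp18 differed by -0.55 ± 0.33 and -0.43 ± 0.33 at 2 days in the SN and VTA, with overlap in both.

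OAS enzymes make the messenger that activates RNase L, and MX proteins are antiviral GTPases. Oasl2, an OAS-like protein, had VTA values of 0.18, 0.86 and 0.40 in controls, -0.58, -0.89 and -0.22 after 2 days and 0.77, -0.18 and 0.03 after 10 days. The 2 day arrays were below the arrays of both other groups. The difference was -1.04 ± 0.34 from control (adjusted p = 0.436), and 10 days exceeded 2 days by 0.77 ± 0.34 (adjusted p = 0.772), or by 0.49 without VTA 10 day array 1. These 2 comparisons share the 2 day arrays. In the SN 10 days exceeded 2 days by 0.63 ± 0.34, with overlap.

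Oas1a had VTA values of 0.02, -0.24 and 0.44 in controls, -0.84, -0.45 and -0.32 after 2 days and 0.01, 0.78 and 0.18 after 10 days. Again the 2 day arrays were lowest, without overlap. The gene differed by -0.61 ± 0.25 at 2 days (adjusted p = 0.576) and by 0.86 ± 0.25 between 10 and 2 days (adjusted p = 0.564). In the SN the differences were -0.11 ± 0.25 and 0.25 ± 0.25. Against VTA controls the 10 day difference was 0.25 ± 0.25.

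Oas2 differed by -0.31 ± 0.23 in the VTA at 2 days without overlap, and Oas3 by -0.39 ± 0.22 with overlap. In the SN Oas2 at 10 days differed by -0.41 ± 0.23 from control and by -0.39 ± 0.23 from 2 days, with overlap in both. Mx2 in the VTA and Mx1 in the SN rested on single arrays. Mx2 was 1.75 on VTA 2 day array 1 and -0.20 and -0.02 on the other 2 arrays of that group, and its 2 day difference of 0.63 ± 0.38 became 0.01 without that array. From 2 to 10 days Mx2 differed by -0.51 ± 0.38 in the VTA and Mx1 by -0.48 ± 0.24. Mx1 was 0.99 on SN 10 day array 3 against -0.03 and -0.04 on the others, with a 10 day difference of 0.28 ± 0.24. In the VTA Mx1 differed by 0.36 ± 0.24 at 2 days with overlap, and by 0.16 to 0.58 with 1 array left out.

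Immunity-related and guanylate-binding GTPases act on the vacuoles of intracellular pathogens. All 5 of them lay lower in the SN at 2 days and 4 of 5 did in the VTA, while all 5 were higher at 10 than at 2 days in the SN. Of all genes 44.7% in the SN and 48.4% in the VTA lay above control at 2 days, and 52.1% were higher at 10 than at 2 days in the SN. The SN count at 2 days leaned on SN control array 2, which held the highest control value of each gene except Iigp1. On SN control arrays 1 and 3 Irgm1 was at -0.29 and -0.28, and Gbp3 at -0.67 and -0.13. Their 2 day means were -0.09 and -0.23. Iigp1 had SN values of 0.34, 0.19 and -0.27 in controls, -0.08, -0.34 and -0.26 after 2 days and 1.14, 0.36 and 0.83 after 10 days. In this mean of 2 probe sets the 10 day arrays lay above the arrays of both other groups. In 1 of them SN 10 day array 2, at 0.32, lay below SN control arrays 1 and 2, at 0.52 and 0.42.

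For Iigp1 the 10 day difference was 0.69 ± 0.28 from control (adjusted p = 0.887) and 1.01 ± 0.28 from 2 days (adjusted p = 0.9998). Its 2 probe sets gave 0.89 and 1.13 for the latter. In the VTA the 10 day values were 0.61, -0.07 and 0.27 and overlapped the controls, with a difference of 0.24 ± 0.28. Within the 10 day groups the VTA lay below the SN by -0.51 ± 0.28 (adjusted p = 0.9999).

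Igtp had SN values of -0.18, 0.80 and 0.05 in controls and -0.25, -0.59 and -0.55 after 2 days. The groups did not overlap, but by a narrow margin, and the difference of -0.69 ± 0.35 (adjusted p = 0.760) became -0.40 without SN control array 2. In the VTA it was -0.76 ± 0.35 with overlap. Gbp3 differed in the VTA by -0.65 ± 0.31 at 2 days and -0.62 ± 0.31 at 10 days without overlap, and VTA control array 2, at 1.18, carried much of both: without it they were -0.34 and -0.31. Gbp2 was 1.48 on SN control array 2 against 0.21 and -0.07 on the other controls. It differed by -0.66 ± 0.39 in the SN and -0.51 ± 0.39 in the VTA at 2 days, and 10 days exceeded 2 days in the VTA by 0.84 ± 0.39 (adjusted p = 0.779), or by 0.52 without VTA 2 day array 1. Irgm1 differed from control by -0.15 to 0.24 in the 4 comparisons.

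The membrane restriction factors hold viruses at the cell surface or in endosomes. Ifitm3 had SN control values of 0.12, 1.20 and -0.40 and VTA control values of 0.27, 1.01 and -0.59. Each control group thus spread more widely than any difference between group means, which was -0.39 ± 0.43 in the SN and -0.54 ± 0.43 in the VTA at 2 days. Ifitm1 was -1.85 on VTA 2 day array 1, and its VTA difference was -0.84 ± 0.54 with overlap. Bst2, tetherin, differed by between -0.21 and 0.07 in the 4 comparisons with control.

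Of the remaining effectors Rsad2, viperin, had 2 day SN values of -0.08, -0.17 and -0.38 and 10 day SN values of 0.09, 0.13 and 0.77. In this mean of 3 probe sets the groups did not overlap, and the difference was 0.54 ± 0.31 (adjusted p = 0.9998), or 0.32 without SN 10 day array 3. Single probe sets did overlap. In 1 of them SN 2 day array 1, at 0.45, lay above SN 10 day arrays 1 and 2, at 0.13 and 0.12. In another it was at -0.01 and SN 10 day array 1 at -0.02. Ifi35 had VTA values of 0.45, 0.11 and 0.25 in controls and -1.36, -0.19 and 0.01 after 2 days. All 2 day arrays were lower, but the difference of -0.78 ± 0.36 (adjusted p = 0.615) became -0.36 without VTA 2 day array 1. Its 3 probe sets were unequal, and the smallest difference among them was -0.22. In that probe set VTA 2 day array 2, at 0.17, lay above every VTA control.

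The chemokine Cxcl10 moved little, with values between -0.17 and 0.35 over the 18 arrays. It differed by -0.20 ± 0.13 in the SN at 2 days without overlap and by 0.24 ± 0.13 between 10 and 2 days in the VTA without overlap, with adjusted p-values of 0.829 and 0.833. Its VTA difference from control at 10 days was 0.12 ± 0.13. Rtp4 differed by -0.42 ± 0.22 in the SN at 2 days with overlap. Xaf1 and Parp14 were each read by 2 probe sets that correlated below 0, at -0.24 and -0.25, and differed from control by 0.13 to 0.30 and by -0.20 to 0.10 in the 4 comparisons. For Xaf1 these ran from 0.13 ± 0.23 at 2 days to 0.30 ± 0.23 at 10 days in the SN.

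After 10 days limma called 0 of 32 genes in either region, against 0.0055% of all genes in the SN and 0.011% in the VTA. Above control lay 15 of 32 in each region, against 46.6% and 49.1% of all genes. At an unadjusted p under 0.05 there was 1 of 32 in each region, Iigp1 higher in the SN and Trim25 lower in the VTA, against 5.57% and 5.41% of all genes. Arrays did not overlap for 2 of 32 genes in the SN, Iigp1 and Oas1a, and for 1 in the VTA, Gbp3, against 11.3% and 9.31% of all genes. Both counts were below the shares of all genes. Without SN control array 2 the number lower in the SN was 8 of 32 in place of 17, and the median 0.18. In the VTA the number lower was 13 and the median 0.06 without VTA 10 day array 2, and 22 were lower without VTA 10 day array 3. The VTA median was -0.15 without VTA control array 3, so its sign was not stable.

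Between 10 and 2 days 0 of 32 genes were called in either region, against 0.0165% of all genes in the SN and 0.033% in the VTA. An unadjusted p under 0.05 was found for 1 of 32 in the SN, against 3.02%, and for 4 of 32 in the VTA, against 6.34%. In the SN 24 of 32 lay higher, against 52.1% of all genes, with a median of 0.22 against 0.01, and in the VTA 21 of 32, against 50.1%, with a median of 0.13 against 0.0002. In the SN 7 of 32 did not overlap, against 11.1% of all genes. Of these 7 were higher and 0 lower, against 6.1% and 5.02% of all genes. In the VTA 4 of 32 did not overlap, against 10.2% of all genes, 3 of them higher and 1 lower, against 5.11% and 5.13%. In the SN 8 were lower at 10 days, or 13 without SN 2 day array 3. In the VTA 11 were, or 7 without VTA 2 day array 1, and the median of 0.13 became 0.03 without VTA 10 day array 3. These comparisons share the 2 day arrays with those against control, so they are not separate evidence. Cell type markers also differed between 2 and 10 days. In the SN all 10 leukocyte markers were higher at 10 days, by a median of 0.19, as were 12 of 13 dopamine neuron markers, by 0.33, and 7 of 15 microglia markers, with a median of -0.02. In the VTA 11 of 13 dopamine neuron markers were higher, by a median of 0.34, 6 of 10 leukocyte markers by 0.28, 8 of 10 endothelial markers by 0.15, 8 of 11 astrocyte markers by 0.11 and 10 of 15 microglia markers by 0.08. Group means of the other lists went both ways. In the SN astrocyte markers went from 0.126 at 2 days to 0.0841 at 10, and oligodendrocyte markers from 0.000597 to -0.112. Endothelial markers there went from -0.0188 to 0.034, erythrocyte from -0.145 to -0.0291 and ependymal from 0.0805 to 0.635. In the VTA erythrocyte markers went from 0.0886 to -0.179, oligodendrocyte from -0.135 to 0.0424 and ependymal from 0.192 to 0.209. Their part was not tested.

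Between regions the interferon-stimulated genes gave little. Limma called 0 of 32 between VTA and SN in control, 2 day or 10 day arrays, as it did for 0% of all genes, and 0 had an unadjusted p under 0.05, against 4.36%, 2.79% and 2.99% of all genes. The VTA lay above the SN for 16, 17 and 9 of 32, against 50%, 53.7% and 51.1% of all genes, with medians of 0.005, 0.02 and -0.08. In controls the VTA was higher for Ifit1 by 0.74 ± 0.53, Gbp3 by 0.55 ± 0.31 and Ifit2 by 0.41 ± 0.32, and differed by -0.41 ± 0.31 for Ddx58, -0.32 ± 0.22 for Rtp4 and -0.31 ± 0.23 for Bst2. After 2 days the values were 0.45 ± 0.38 for Mx2, 0.27 ± 0.21 for Stat2, 0.25 ± 0.23 for Xaf1, -0.87 ± 0.54 for Ifitm1, -0.45 ± 0.36 for Ifi35 and -0.31 ± 0.25 for Oas1a. After 10 days they were 0.36 ± 0.23 for Oas2, 0.30 ± 0.25 for Oas1a, 0.19 ± 0.35 for Igtp, -0.49 ± 0.24 for Mx1 and -0.33 ± 0.31 for Gbp3. The arrays of both regions overlapped for each of these genes, and the limma adjusted p was above 0.999 for each.

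The difference between the VTA and SN responses to MPTP likewise had 0 of 32 called, against 0% of all genes, and 0 at an unadjusted p under 0.05 at 2 or 10 days, against 3.3% and 3.17% of all genes. Its standard errors were larger, with a median of 0.381, and at 2 days 13 of 32 of the 95% intervals lay within a 2-fold change either way, so a regional difference of that size was not excluded for the others. The smallest unadjusted p was that of Gbp3 at 10 days, -0.88 ± 0.43 (adjusted p = 0.99996). At 2 days the response difference was 0.69 ± 0.44 for Ddx58, 0.65 ± 0.53 for Mx2, 0.39 ± 0.35 for Irgm1, -0.81 ± 0.52 for Ifi35 and -0.51 ± 0.36 for Oas1a. At 10 days it was 0.51 ± 0.55 for Gbp2, 0.34 ± 0.44 for Ddx58, 0.23 ± 0.31 for Rtp4, -0.51 ± 0.40 for Irf9 and -0.41 ± 0.34 for Mx1. Single arrays weighed on these values: over all 11 comparisons, 56 of the 70 differences listed for their p or their lack of overlap moved by over 1.5 times when 1 array was left out.

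Genes of the pathway outside this group are given as counts. Of 12 interferon ligands and receptors and 21 genes of receptor and sensor signalling, 0 were called in any comparison. The 41 further interferon-stimulated genes outside the MHC had 29 lower at 2 days in the SN and 32 in the VTA, with medians of -0.18 and -0.15. Between 10 and 2 days 33 of 41 were higher in each region, with medians of 0.15 and 0.21, and 0 were called. Of all genes 44.7% in the SN and 48.4% in the VTA lay above control at 2 days. Between 10 and 2 days 52.1% and 50.1% were higher. Most genes of both lists of interferon-stimulated genes thus lay lower at 2 days and higher from 2 to 10 days. Both comparisons use the 2 day arrays, and the means of the lists correlated at 0.86 within groups, so the second list is not separate evidence. Single arrays were not left out for the 41 genes.

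Of 9 MHC class I and antigen-processing genes 1 was called, H2-K1, the heavy chain of a classical class I molecule. Its values were 1.22, 1.03 and 1.61 on the SN 10 day arrays and 1.32, 0.87 and 1.40 on the VTA 10 day arrays, while the other 12 arrays lay between -0.54 and 0.24. H2-K1 rose by 1.54 ± 0.21 from 2 to 10 days in the SN (adjusted p = 0.0135) and by 1.34 ± 0.21 in the VTA (adjusted p = 0.0291), and lay 1.39 ± 0.21 above control at 10 days in the VTA (adjusted p = 0.0454). The SN difference from control at 10 days was of like size, 1.38 ± 0.21, with an adjusted p of 0.0522, and the difference between the regional responses was 0.02 ± 0.29. Among the 32 genes outside the MHC, Iigp1 and Oas1a had 10 day arrays above the SN controls without overlap. That is 2 of 32, against 910 of all 18193 genes that were higher without overlap in the SN. Both genes overlapped in the VTA. A share of all genes for both regions at once was not computed, so nothing is drawn from this beside H2-K1.

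The genes of the family followed each other from array to array within groups. After each group's mean was removed, the correlation of a gene with the mean of the other 31 had a median of 0.51 over the 18 arrays, and it exceeded 0.5 for 16 of 32 genes (50%), against 5.81% of 18161 other genes set against the mean of all 32. These are descriptions over arrays that share a scale, and no test was made. Irf1 followed most closely with 0.91, then Ifit3 with 0.88, Ifitm3 with 0.84, Rsad2 with 0.84 and Oasl2 with 0.76. At the other end stood Ifit2 with -0.47 and Dhx58 with -0.28. Irf9, which opposed the others between groups, followed them within groups with 0.46. When each array was left out in turn the median was between 0.40, without SN control array 2, and 0.60.

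**Figure D4:**
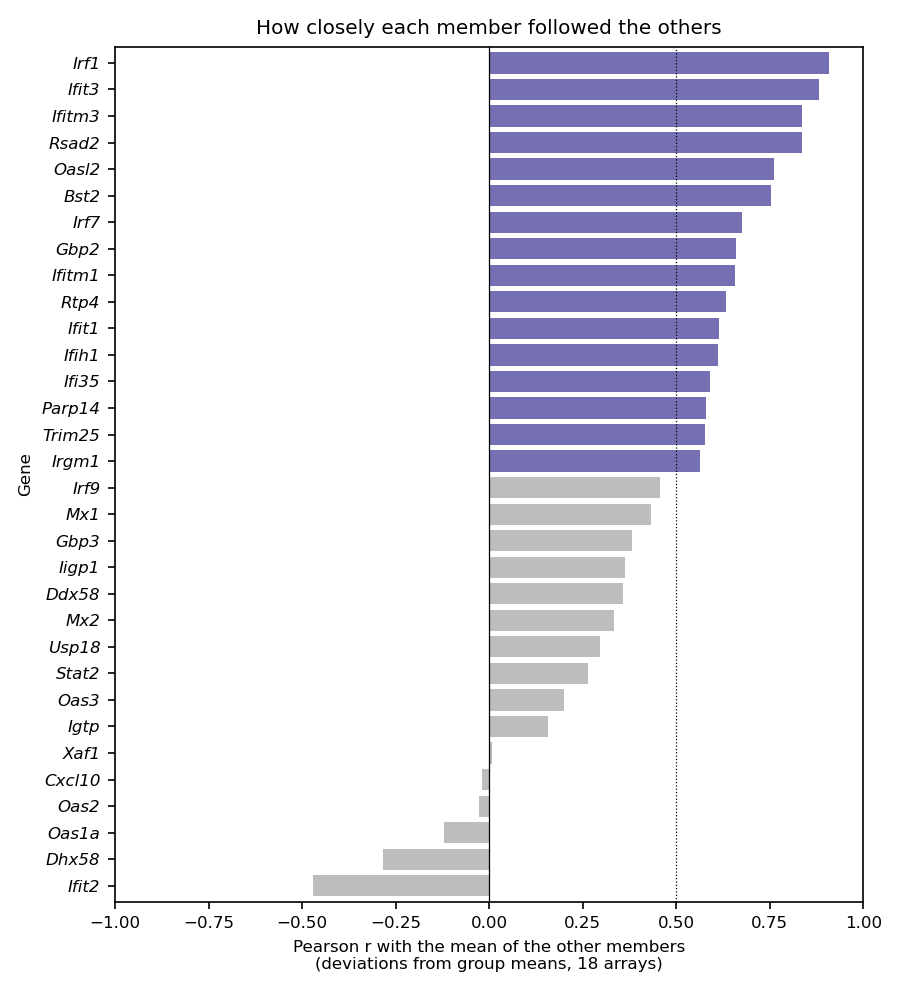
Pearson correlation of each gene with the mean of the other 31 interferon-stimulated genes over the 18 arrays, after each group's mean was subtracted. The 16 genes past 0.5 (dotted line) are dark and led by Irf1 at 0.91; Ifit2 at -0.47 is at the bottom.

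The arrays that were high or low over the family can be named. On SN 10 day array 3 28 of 32 genes were above 0, on SN control array 2 and VTA 10 day array 3 26 each, and on VTA control array 2 23. On SN 2 day array 3 only 3 were above 0, on VTA 10 day array 2 6, and on SN control array 3 7. The share of all genes above 0 was between 43.3% and 55.5% on every array. Arrays 3 of the 10 day groups were high in both regions, and 10 day arrays with the same number also correlated over all genes.

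Markers of several cell types moved with the family over the arrays. Within groups the mean of 10 leukocyte markers correlated with the mean of the 32 genes at 0.81, that of 3 erythrocyte markers at 0.73 and that of 15 microglia and macrophage markers at 0.62. The correlation was 0.48 for 9 ependymal and choroid plexus markers, 0.47 for 10 endothelial, 0.45 for 11 astrocyte, 0.15 for 13 dopamine neuron and 0.15 for 8 oligodendrocyte markers. Each is over 18 arrays, with no test, also of the differences between lists. The mean of the 41 further interferon-stimulated genes correlated at 0.86 and that of the 9 MHC class I genes at 0.85. With each array left out in turn, the leukocyte value was lowest without SN control array 2, at 0.72. The microglia value was lowest without SN 10 day array 3, at 0.52. Both were highest without SN 2 day array 3, at 0.91 and 0.73. On that array the mean of the 32 genes was the lowest of the 18, at -0.29. The leukocyte and microglia means there, -0.07 and 0.07, were the highest of their group. The part of other cells in the captured material was not tested, and centred values do not show whether a marker was near background.

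**Figure D5:**
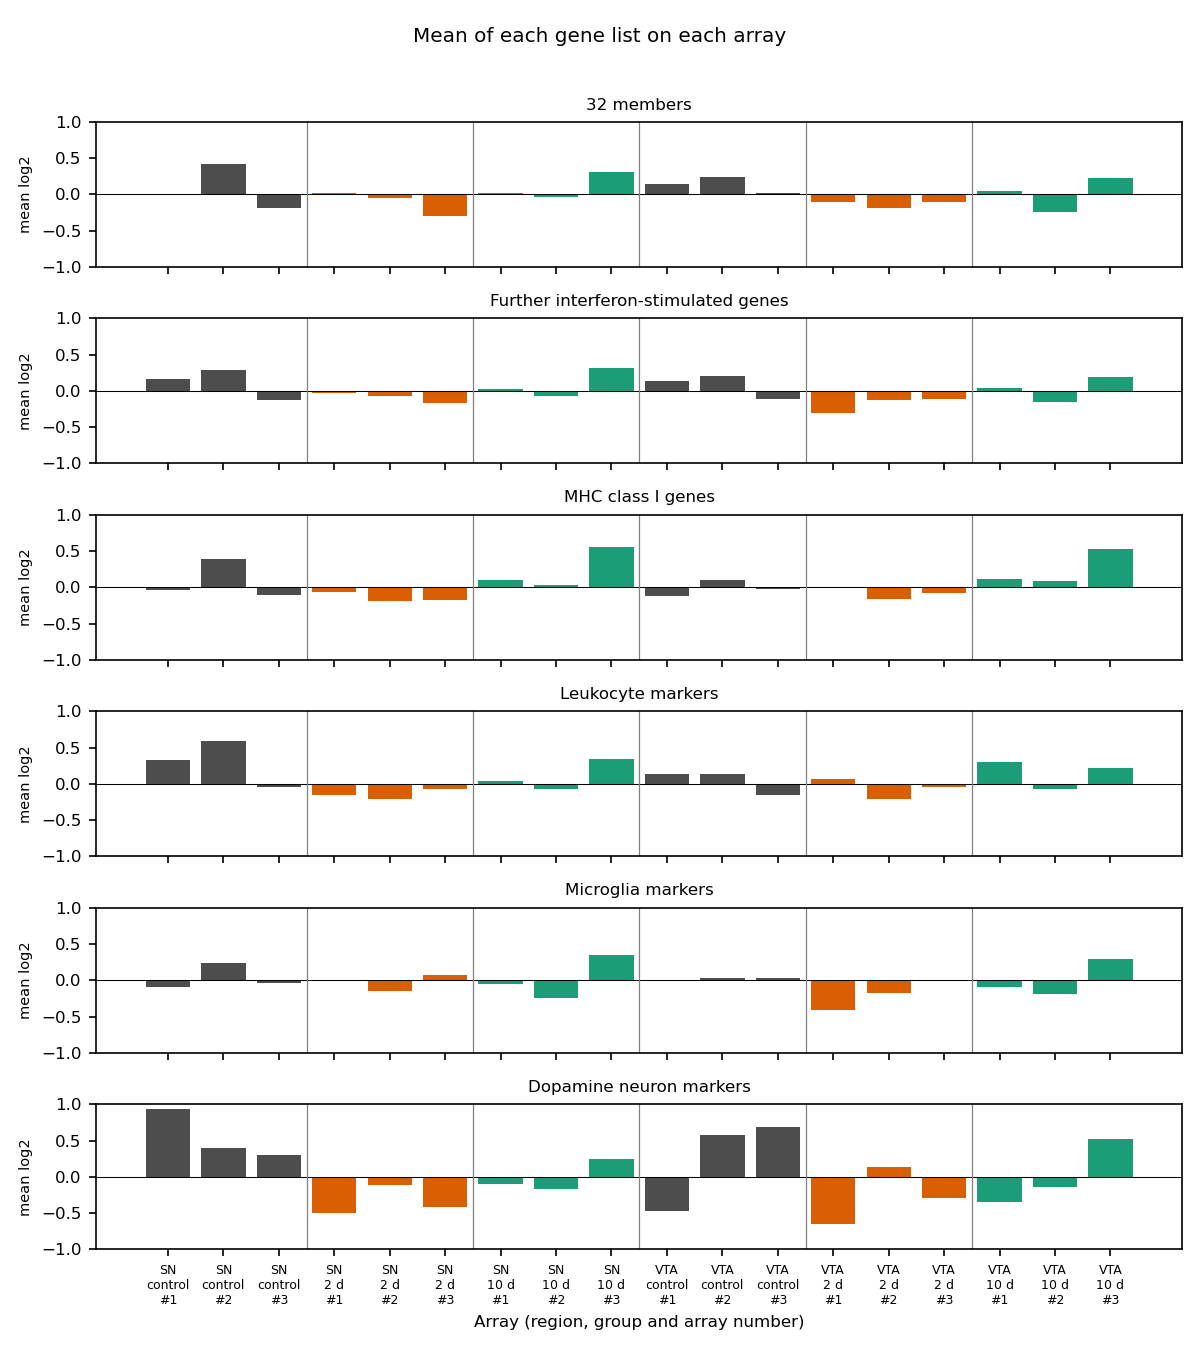
Mean centred log2 value on each array (bars, coloured by treatment) of the 32 interferon-stimulated genes, 41 further ones, 9 MHC class I genes, 10 leukocyte, 15 microglia and macrophage, and 13 dopamine neuron markers. SN control array 2, VTA control array 2 and array 3 of both 10 day groups are above 0 in every panel. The dopamine neuron markers are highest on SN control array 1, at 0.93.

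The promoter matches can be set beside these correlations as a description. The 15 measured genes with an ISRE match had a median within-group correlation of 0.56 and the 9 with a window but no match had 0.59, with ranges of -0.12 to 0.88 and -0.47 to 0.91. Ifit3 and Rsad2, whose matches are printed above, were among the closest followers. Irf1 and Oasl2, with no ISRE match in their windows, were as well, and Oas1a, with 2 ISRE matches next to its start, had -0.12.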

How the data were processed

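Per the series' design text, the authors took log2 of the signals and RMA normalised them in GeneSpring GX 10.0; RMA is also in the submitters' processing notes. Beyond RMA, the sources used here name nothing for background correction or filtering. The deposited log2 values of 45101 probe sets have a median of 0 over the 18 arrays, within 5e-07, so they hold no levels and no filter on low values was possible. Probe sets were named by the platform's annotation, which can be old, and those with 1 symbol were averaged per gene (18193 genes). Groups come from the sample titles. Limma 3.58.1 in R 4.3.3 (lmFit, eBayes) fitted 6 group means over the 18 arrays, with 12 residual degrees of freedom and 4.06 from the prior. Two-sided p-values were adjusted by Benjamini-Hochberg, per comparison (11 in all) across the whole gene table, with a threshold of 0.05, and errors are SE of differences. The fit was tested on simulated data. P-values measure the spread between these arrays, and 3 arrays per group limit the precision. The members and lists were chosen with earlier results of these data known. Named with values were the 3 smallest p each way per comparison, genes whose arrays did not overlap with a difference of at least 0.5, and examples of each role. Same-numbered SN and VTA arrays of 1 treatment correlated in their deviations at 0.0504 to 0.399. The labels give no pairing, and 7 of 9 pairs were over 0.1, including all 3 at 10 days. Promoter windows are RefSeq's (GRCm38.p6), with names matched by symbol. Alternatives changed the probe set rule, scaling, array weights, replicate block, samples in the fit and each array left out. Figures used matplotlib 3.10.9.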

Additional observations from a re-analysis of the deposited data

How the results depend on the processing

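The count of interferon-stimulated genes passing an adjusted p of 0.05 was 0 in each of the 78 counts made with 1 array left out and the 100 made under other alternatives, over 11 comparisons. The replicate number as a block (replicate block) also gave 0 in each, with 3 at an unadjusted p under 0.05 in the SN at 2 days and 6 in the VTA, against 3 and 8 without it. A replicate block within the 10 day arrays, chosen after seeing the data, gave 0 between VTA and SN, with 3 unadjusted against 0. The numbers of genes lower were also added after seeing the data. With 1 array left out they ranged from 8 to 23 for 10 days against control in the SN, from 13 to 22 for 10 days against control in the VTA, from 6 to 13 for 10 against 2 days in the SN and from 7 to 15 in the VTA, where the last was 7 without the 2 arrays of widest spread. Medians ranged from -0.16 to 0.18 for 10 days against control in the SN, from -0.15 to 0.060 for 10 days against control in the VTA, from 0.029 to 0.18 for 10 against 2 days in the VTA, from -0.074 to 0.19 for VTA against SN controls and from -0.35 to 0.024 for the response difference at 10 days; SN control array 2 set the 0.18, the 0.19 and the -0.35. Over all 32 genes, a check added after seeing the data, the sign turned at least once for 14 in the SN and 10 in the VTA at 2 days, and for 18 and 16 at 10 days. Among the 70 differences chosen by p or lack of overlap it turned for 3 genes, Xaf1, Mx2 and Rtp4. Xaf1 in the SN at 2 days was -0.050 with array weights and -0.091 without the 2 widest arrays, and ranged from -0.091 to 0.28 with 1 array left out. Between VTA and SN at 2 days it was -0.023 without the 2 widest arrays and ranged from -0.023 to 0.41. Mx2 from 2 to 10 days in the VTA was 0.11 without the 2 widest arrays and ranged from -0.86 to 0.11. Between VTA and SN at 2 days it was -0.17 without them and -0.048 with array weights, and ranged from -0.17 to 0.80. Rtp4 in the response difference at 10 days was -0.20 with the probe set of largest SD. A filter on low values was not run because the values are centred. The cause of these shifts was not tested. With 3 arrays per group a standard error near 0.269 leaves small differences undetectable.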
